A study of Mus musculus with 4 samples.

Results

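The genes described here encode the histones, the proteins that package DNA into nucleosomes. They were taken as every protein-coding gene whose GENCODE M21 symbol began with H1f, H2af or H3f (the variants), or with Hist followed by a cluster number and h (the replication-dependent histones). The rule found 80 genes among the 50600 of each table, of which 15 were variants and 65 were replication-dependent histones. RNA-seq counts came from 4 libraries of T helper 17 (Th17) cells, IL-17-producing cells that were differentiated from CD4 T cells of C57BL/6NJ mice. The libraries form 1 group, numbered as biological replicates 1 to 4 with a single donor entry for all, so p-values measure only the spread between these libraries. The labels give no sex and no age, and no treatment, transgene or other condition. The assay was labelled as total RNA-seq, while the linked library protocol is named for poly(A)+ RNA, and the table headers name a 24 hour sample.

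Replication-dependent histone genes lie in clusters, have short intronless transcripts and are transcribed mainly in S phase, when new DNA has to be packaged. Their mRNAs are the known exception among animal mRNAs in ending without a poly(A) tail: a stem-loop near the 3′ end is bound by the stem-loop binding protein SLBP, and the transcript is cut after it. Variant genes stand apart from the clusters, often have introns, and make polyadenylated mRNA throughout the cell cycle. Their proteins replace the replication-dependent ones at particular sites or times, as H3.3 and H2A.Z do at active genes and promoters. T cells that are activated divide rapidly and must supply histones for each round of replication. Some histone genes of either kind can also yield polyadenylated mRNA.

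The 3′ ends of the mRNAs are shown first, because they are the feature that separates the classes by how their mRNAs are made. The stem-loop was searched as the letters GG, NN, CTTTT, N, AG, NN and CC in direct succession, where N is any base, on the sense strand of each gene's M21 protein-coding transcripts. It was found in 1 of 15 variants, in 42 of 65 replication-dependent histones, and in 0.125% of 21617 protein-coding genes outside the 80. The variant was H2afx, whose mRNA is known from other work to end either at the loop or at a later poly(A) site. The sequences below run 5′ to 3′ in mm10, with the loop and its stem in capitals, for H2afx and for 5 replication-dependent genes from the 4 clusters and from different histone classes.
H2afx (chr9:44335235-44335260, plus strand): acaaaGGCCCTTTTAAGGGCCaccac
Hist1h4i (chr13:22040961-22040986, minus strand): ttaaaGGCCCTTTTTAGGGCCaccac
Hist1h2bj (chr13:22043633-22043658, plus strand): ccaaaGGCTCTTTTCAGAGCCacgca
Hist2h2ac (chr3:96220413-96220438, minus strand): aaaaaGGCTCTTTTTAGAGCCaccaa
Hist3h2a (chr11:58955167-58955192, plus strand): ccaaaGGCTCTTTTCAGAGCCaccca
Hist4h4 (chr6:136803993-136804018, minus strand): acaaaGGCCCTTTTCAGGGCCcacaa
The motif of H2afx was held by no replication-dependent gene in exactly the same 16 letters. The commonest form, shown for Hist1h2bj and Hist3h2a, occurred in 24 of the 42 replication-dependent genes with a loop.

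The poly(A) signal AATAAA was searched in the last 50 bases of the same transcripts. It was found in 9 of 15 variants, in 14 of 65 replication-dependent histones, and in 66.1% of the protein-coding genes outside the 80. The signals of the most abundant H3 and H2A variants and of the histone neighbours on chromosome 6 are given with the 6 letters in capitals.
H3f3b (chr11:116021994-116022009, minus strand): ttacaAATAAActagt
H2afz (chr3:137866797-137866812, plus strand): agctcAATAAAggtca
H2afj (chr6:136810046-136810061, plus strand): ggacaAATAAAgaata
Hist4h4 (chr6:136801553-136801566, minus strand): gatgaAATAAAtac
Both features were present in 0 variants and in 10 replication-dependent genes, among them Hist4h4, Hist3h2a, Hist1h1c and Hist1h2ae. The annotation itself limits this search. Of the 23 replication-dependent genes with no loop, 13 have transcripts annotated to end at the stop codon, so the part of the mRNA where a loop would lie is missing. A motif is a description of the annotated sequence and not evidence of how these cells ended the mRNA.

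The variants held most of the histone mRNA measured. TPM values divide the counts of a gene by its merged exon length and scale each library to the same total, so they allow levels of different genes to be compared. Summed TPM of the 15 variants was 1634, 1642, 1584 and 1699 in replicates 1 to 4, against 193, 175, 156 and 209 for the 65 replication-dependent histones. The sums did not overlap, and that of the variants was 9.04 ± 0.920 times that of the replication-dependent genes (SD, n = 4). Variants thus took 89.98% ± 0.902 of all histone TPM, with 89.5%, 90.3%, 91.1% and 89.0% in the 4 libraries. All 80 genes together made up 0.182% ± 0.00690 of the TPM of a library. In counts, 204257 read pairs fell in variants and 4534 in replication-dependent genes over the 4 libraries. In bulk samples such as these, fewer cells that express a gene and less RNA per cell cannot be told apart.

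**Figure D1:**
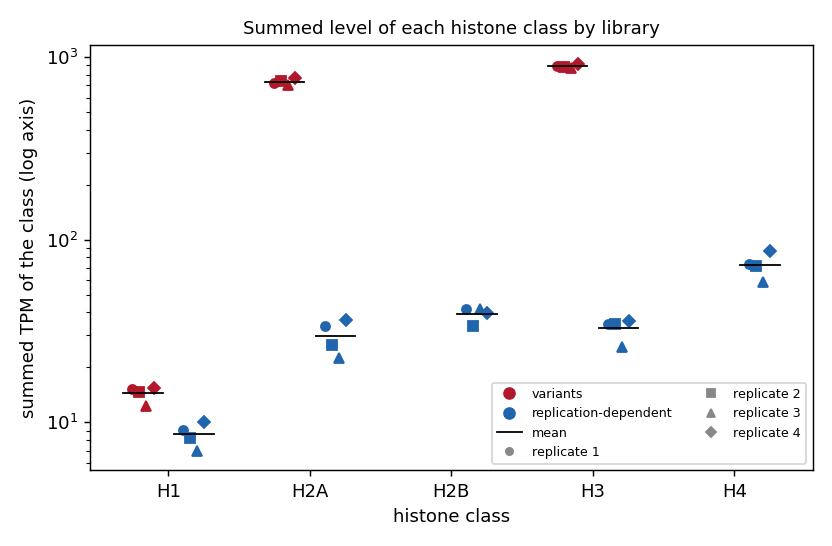
Summed TPM of each histone class (H1, H2A, H2B, H3, H4) on a log axis, with variants in red left of replication-dependent histones in blue. Symbols are the 4 libraries and black bars their means. Variants lay above replication-dependent genes in every library for H1, H2A and H3, and neither H2B nor H4 had a variant under these symbols.

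Variants exceeded replication-dependent genes in each of the 3 classes that have both. For H3, the 2 variants summed to 891 ± 20.3 TPM and the 12 replication-dependent genes to 32.7 ± 4.65 TPM (SD, n = 4). For H2A, the 9 variants summed to 734 ± 26.9 TPM and the 18 replication-dependent genes to 29.8 ± 6.36 TPM. The gap was smallest for the linker histone H1, with 14.4 ± 1.44 TPM in 4 variants and 8.60 ± 1.32 TPM in 6 replication-dependent genes. As a share of each class, variants held 96.5% ± 0.431 of H3, 96.1% ± 0.714 of H2A and 62.8% ± 1.67 of H1 TPM. H2B, with 16 replication-dependent genes, summed to 39.2 ± 3.67 TPM, and H4, with 13, to 72.9 ± 11.6 TPM. These sums describe mRNA and not protein.

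The classes differed less in the share of genes above 1 TPM than in how high those genes were. A gene was called above or below 1 TPM by edgeR's quasi-likelihood F test with Benjamini-Hochberg adjustment over 21764 protein-coding genes, at a threshold of 0.05. Above 1 TPM were 8 of 15 variants (53.3%) and 24 of 65 replication-dependent histones (36.9%), against 45.9% of all genes tested. Below 1 TPM were 7 variants (46.7%) and 21 replication-dependent histones (32.3%), against 51.5% of all genes tested. Another 20 replication-dependent histones passed in neither direction. Of the 21 below, 14 share at least 25% of their transcript sequence with other genes, and 3 of the 14 share all of it. The variants H2afb1 and H2afb3 also share at least 25%. Read pairs that map to several places were not counted, so these below calls need not reflect low levels. With exon length reduced to the unshared part, which 60 of the 65 replication-dependent genes have, 8 were below. The shares above 1 TPM lie on either side of that of all genes and are not read as a result about either class. Above 1 TPM, DESeq2 called 8 variants and 19 replication-dependent histones, against 43.8% of all genes, so 5 of the 24 replication-dependent calls were lost. Of the genes below 1 TPM by edgeR, DESeq2 gave no p for 5 variants and 11 replication-dependent histones, which have no count. Of the others, 2 variants and 10 replication-dependent histones, it called 0. Over all 21764 genes, which include those with no count and those above 1 TPM, DESeq2 called 5.44% below. These shares are over unlike sets and are not compared.

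Among the genes above 1 TPM, the 8 variants ran from 12.2 to 816 TPM with a median of 119, while the 24 replication-dependent histones ran from 1.74 to 34.3 TPM with a median of 3.69. Over all members the median level was 12.2 TPM in variants and 0.803 TPM in replication-dependent histones, and 0.411 TPM over all protein-coding genes. The median log2(TPM + 1) of variants minus that of replication-dependent histones was 2.59, 3.11, 2.60 and 2.82 in the 4 libraries, or 2.78 ± 0.24 (SD). This difference was positive in 4 of 4 libraries, and it carries no test because the members were chosen with earlier results known. No count in any library was found for 5 variants and 11 replication-dependent genes.

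**Figure D2:**
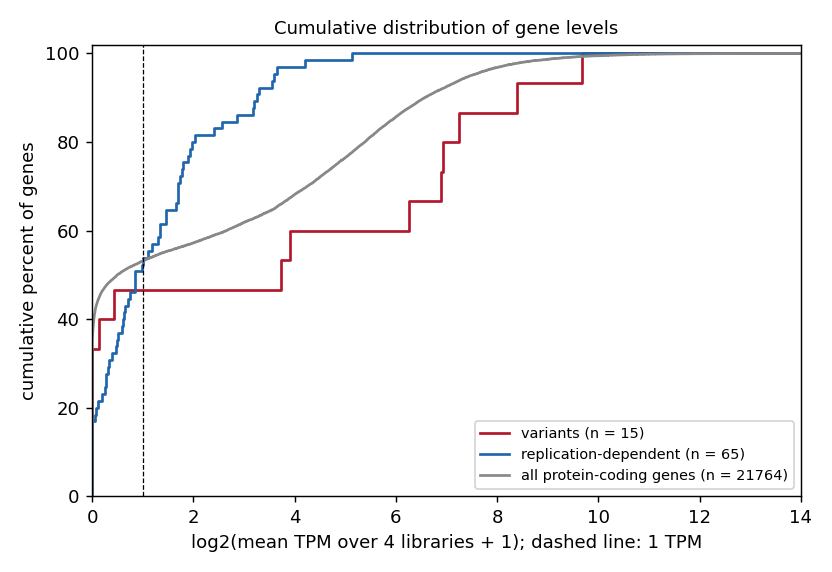
Cumulative percent of genes (vertical axis) at or below a mean level over 4 libraries, as log2(TPM + 1) (horizontal axis), for variants in red, replication-dependent histones in blue and all protein-coding genes in grey, with 1 TPM dashed. All replication-dependent genes lie at or below 34.3 TPM, while the curve of the variants runs on to 816 TPM.

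The H3.3 genes came first. H3f3b (chr11:116021912-116027962, minus strand) encodes H3.3, the H3 variant laid down outside replication. It had 822, 810, 794 and 837 TPM, the highest of the 80 genes and rank 145 of the protein-coding genes. Its values lay close together, at 816 ± 18.6 TPM (SD, n = 4), and made up 44.8% ± 0.731 of all histone TPM. H3f3a (chr1:180800832-180813943, minus strand) encodes the same protein and had 73.0, 75.6, 74.3 and 79.2 TPM. H3f3b exceeded it in every library, by 3.42 ± 0.04 on the log2(TPM + 1) scale. The exact two-sided sign-flip permutation test over 4 libraries gave p = 0.125, the smallest that 4 libraries allow, here and for each pair below. Most of the H3.3 mRNA thus came from H3f3b.

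H2A.Z, a variant placed at promoters and regulatory sites, is likewise encoded by a pair of genes. H2afz (chr3:137864487-137866922, plus strand) had 323, 328, 312 and 369 TPM, and H2afv (chr11:6427229-6444443, minus strand) had 11.1, 14.0, 10.8 and 13.0 TPM. H2afz was higher in all 4 libraries, by 4.67 ± 0.14 on the log2(TPM + 1) scale (exact sign-flip permutation p = 0.125). Some 50-base words of H2afz transcripts, 35.4%, also occur in transcripts of other genes, and reads from such stretches may not have been counted. With the exon length reduced to the unshared part, its level was 516 TPM.

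MacroH2A carries a large domain beyond the histone fold and is known mostly from silent chromatin. H2afy (chr13:56073619-56136361, minus strand), for macroH2A1, had 149, 149, 153 and 150 TPM, the most even values of any variant, with a coefficient of variation of 1.26%. H2afy2 (chr10:61738665-61784147, minus strand), for macroH2A2, had 0.0377, 0.0794, 0.0442 and 0.253 TPM, from 1, 1, 1 and 8 read pairs. H2afy thus exceeded H2afy2 by 7.10 ± 0.13 on the log2(TPM + 1) scale (exact sign-flip permutation p = 0.125). The added 1 sets much of this value, since H2afy2 lies far below 1 TPM: with 0.1 added instead, the difference was 9.64 ± 0.63. H2afy2 was below 1 TPM by edgeR (adjusted p = 1.98e-06), which DESeq2 did not call (adjusted p = 0.190).

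H2A.X is the variant that is phosphorylated around DNA breaks. H2afx (chr9:44334694-44336077, plus strand) had 125, 117, 107 and 121 TPM, below H2afz in all 4 libraries by a mean difference of -1.49 ± 0.10 on the log2(TPM + 1) scale (exact sign-flip permutation p = 0.125). On the full exon length it exceeded the sum of the 18 replication-dependent H2A genes, at 4.06 ± 0.648 times their summed TPM. Of those genes, 16 share at least 25% of their words. On the unshared length H2afx had 130 ± 8.45 TPM and Hist1h2ai alone 83.0 ± 40.3 TPM. There the replication-dependent H2A genes together exceeded H2afx in mean, so the excess of H2afx depends on the length used. H2afx has a single exon block, as 8 of the variants do, and holds the stem-loop shown above. A further 822 bases of annotated mRNA follow its loop.

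H2afj, for H2A.J, had 115, 133, 121 and 114 TPM, which overlap the values of H2afx. It lies beside the only gene of the Hist4 cluster, the H4 gene Hist4h4, with 3828 bases between them on chromosome 6 (chr6:136808244-136810074, plus strand, and chr6:136801553-136804415, minus strand). H2afj averaged 121 ± 8.93 TPM and Hist4h4 averaged 0.0510 ± 0.0169 TPM (SD, n = 4), with 1, 1, 2 and 2 read pairs for Hist4h4. Their shared words were few, at 7.002% for H2afj and 8.52% for Hist4h4.

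The linker variants were lower. H1f0, for H1.0, a linker histone known from differentiated and resting cells, had 14.7, 14.4, 12.2 and 14.9 TPM. H1fx had 0.472, 0.284, 0.0790 and 0.564 TPM, below 1 TPM in each library (edgeR adjusted p = 0.00766, DESeq2 adjusted p = 0.314). The germ-line variants had no read pair in any library: H1fnt of spermatids, H1foo of oocytes, and H2afb1, H2afb2 and H2afb3, whose H2A.B proteins are known from the testis. For these genes, 3 counts over the 4 libraries would equal 0.0527 TPM for H1fnt, 0.0582 TPM for H1foo and 0.201 TPM for each H2afb gene. Shared words made up 43.8% of H2afb1 and 46.8% of H2afb3, which leaves the levels of both uncertain.

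**Figure D3:**
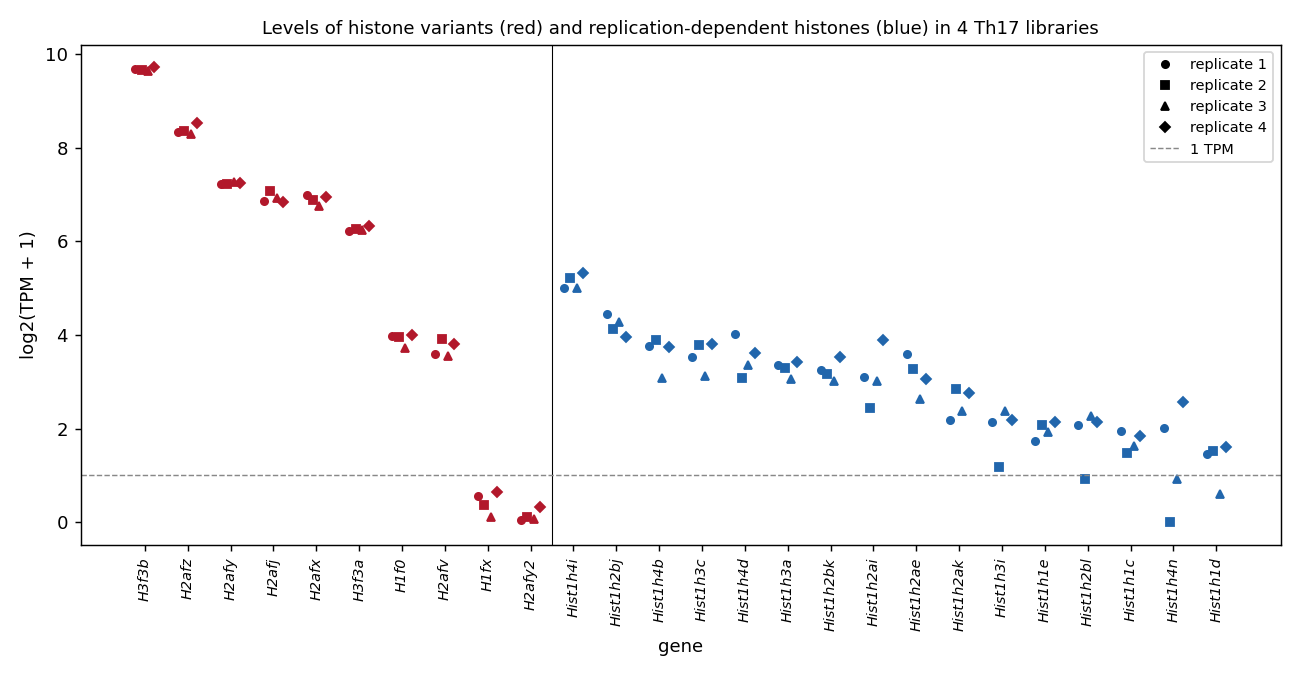
Level as log2(TPM + 1) (vertical axis) in each of 4 libraries for the 10 variants with a count (red, left) and 16 replication-dependent histones (blue, right), the 3 highest of each class and Hist1h4n. Of the red genes, 6 lie above all blue ones, H1f0 and H2afv lie among the higher blue genes, and H1fx and H2afy2 lie below the dashed line at 1 TPM.

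Among replication-dependent genes the highest was Hist1h4i (chr13:22040636-22041362, minus strand), an H4 gene, with 31.2, 36.4, 30.8 and 38.8 TPM. On the full exon length its values overlapped those of no other replication-dependent gene and lay below those of H3f3a, the sixth of the variants. It held 18.8% ± 1.97 of all replication-dependent TPM. With 28.9% of its words shared, Hist1h4n being the closest match, its level on the unshared length was 48.2 TPM. On that length Hist1h2ai had a higher mean, and the values of Hist1h4i and Hist1h4b overlapped. The next H4 genes on the full length were Hist1h4b with 12.6, 13.9, 7.50 and 12.5 TPM and Hist1h4d with 15.2, 7.47, 9.29 and 11.2 TPM. Their values overlap each other. Hist1h4m had no count, but 89.8% of its words are shared, which leaves its level uncertain.

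For H2B, Hist1h2bj (chr13:22043214-22043676, plus strand) was highest, with 20.9, 16.4, 18.3 and 14.5 TPM. It was followed by Hist1h2bk at 8.51 ± 1.47 TPM and Hist1h2bl at 2.84 ± 1.31 TPM (SD, n = 4). Hist1h2ba, the testis H2B gene, had no count, with a limit of 0.182 TPM at 3 counts on the full exon length. It shares 38.2% of its words, which leaves its level uncertain. H2B has no variant among the 15, and H2bfm, a further H2B gene outside the 80 that was looked up afterwards, had no count.

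For H3, Hist1h3c had 10.6, 12.7, 7.66 and 13.1 TPM and Hist1h3a had 9.22, 8.74, 7.38 and 9.77 TPM, with overlapping ranges. Hist1h3i followed at 3.09 ± 1.27 TPM. Shared words made up 47.0% of Hist1h3c, 49.5% of Hist1h3a and 87.6% of Hist1h3i. On the unshared length the highest H3 mean was that of Hist1h3h, at 36.5 ± 16.0 TPM. There Hist1h3i had 24.9 ± 10.2, Hist1h3c 20.8 ± 4.69 and Hist1h3a 17.4 ± 2.03 TPM, so the order depends on the length used. Hist2h3c1 had no count, and each of its words is shared with another gene, so its level cannot be read from these tables. On the full exon length every one of the 12 replication-dependent H3 genes was lower in mean than H3f3a at 75.5 ± 2.68 TPM.

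For H2A, Hist1h2ai at 8.20 ± 3.98 TPM and Hist1h2ae at 8.06 ± 2.45 TPM were close, and Hist1h2ak had 4.91 ± 1.25 TPM (SD, n = 4). Hist1h2ai was the least certain of the high genes. It shares 90.1% of its words, and on its unshared length its level was 83.0 TPM. Hist1h2aa, the testis H2A gene, had no count, with a limit of 0.179 TPM at 3 counts. On the full exon length H2A had the lowest median level of the replication-dependent classes, 0.245 TPM, against 2.22 TPM for H4. The median share of words was 73.0% in H2A and 39.5% in H4. On the unshared length the median of H2A was not the lowest, so this order depends on the length used.

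For H1, Hist1h1e had 2.30, 3.23, 2.83 and 3.40 TPM, and Hist1h1c had 2.84, 1.77, 2.09 and 2.60 TPM. Both were above 1 TPM by edgeR (adjusted p = 2.06e-09 and 1.04e-10), and their ranges overlap. Hist1h1d averaged 1.54 ± 0.693 TPM and passed in neither direction (edgeR adjusted p = 0.0948). The testis linker gene Hist1h1t had no count. H1f0 exceeded every replication-dependent H1 gene in every library.

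By location, the Hist1 cluster on chromosome 13 (chr13:21715763-23934851, 52 genes) held nearly all replication-dependent TPM, 178 ± 23.6. Of its genes 23 were above 1 TPM, close to the 45.9% of all genes. The 10 genes of Hist2 on chromosome 3 summed to 3.67 ± 1.19 TPM, with 1 above 1 TPM, Hist2h2be, which DESeq2 did not call (adjusted p = 0.244). The 2 genes of Hist3 on chromosome 11 summed to 1.56 ± 0.347 TPM. Shared words had a median of 51.9% in Hist1 and 82.4% in Hist2, and the part of uncounted reads in the low Hist2 sum was not tested.

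Sharing of sequence differed between the classes and bears on all these levels, because read pairs that map to several places were not counted. At least 25% of words were shared in 4 of 15 variants and in 49 of 65 replication-dependent histones, and the median share was 8.03% in variants and 55.0% in replication-dependent histones. All words were shared in 5 genes, Hist2h2aa1, Hist2h2aa2, Hist2h2bb, Hist2h3b and Hist2h3c1. Among genes with under 25% shared, the 11 variants summed to 1231 ± 23.1 TPM and the 16 replication-dependent histones to 26.4 ± 5.35 TPM (SD, n = 4). Of these, 6 of the 11 variants and 4 of the 16 replication-dependent histones were above 1 TPM, against 45.9% of all genes tested. These counts are not read as a result about either class. Thus the gap between the sums was also present among genes under 25% by this measure. The words come from M21 transcripts, which for some genes run past the counted M13 exons. Hist1h4d, at 10.8 TPM among the 16, has a transcript of 1138 bases and a counted length of 393. In such genes the counted part may share more than the percent given, and the level on the unshared length may be too low. Dividing by the unshared length instead gave the variants 78.5% of histone TPM, a lower share than the 89.98% above. On that length Hist1h2ai was the highest replication-dependent gene, at 76.1, 44.5, 71.7 and 140 TPM in replicates 1 to 4. Replicate 4 stands out, and there Hist1h2ai exceeded H3f3a, which had 100.1, 104, 101.9 and 109 TPM on its own unshared length. After Hist1h2ai came Hist1h4i at 48.2 ± 5.55 TPM, Hist1h4b at 48.2 ± 11.7 TPM, Hist1h2bj at 43.2 ± 6.71 TPM, Hist1h3h at 36.5 ± 16.0 TPM and Hist1h2bk at 33.0 ± 5.69 TPM (SD, n = 4), with overlapping ranges. Hist1h3h was picked here after its values were seen. H3f3b, at 876 TPM on its unshared length, stayed above all 60 replication-dependent genes that have one.

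**Figure D4:**
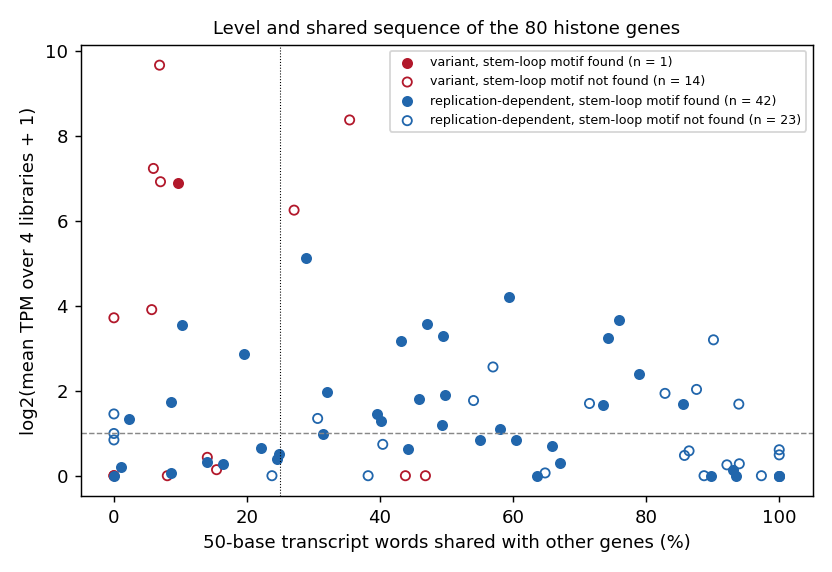
Mean level over 4 libraries as log2(TPM + 1) (vertical axis) against the percent of 50-base transcript words shared with other genes (horizontal axis) for 15 variants (red) and 65 replication-dependent histones (blue). Filled points have the stem-loop motif, the dotted line marks 25% and the dashed line 1 TPM. Most blue points lie right of 25%. Left of it, the 16 blue points run from 0 to 10.8 TPM and the 11 red points from 0 to 816 TPM.

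The level of replication-dependent genes was also set beside their annotated 3′ ends, with 45.9% of all genes above 1 TPM for comparison; no share below stood above it. Ends are those of the longest M21 transcript with a loop, while levels come from M13 exons. For some genes, such as Hist1h4d, the counted exons end near the loop although the M21 transcript runs on. Of 21 genes whose transcript ends within 100 bases of the loop, 8 were above 1 TPM and the median was 1.14 TPM. Of 21 genes with a loop and a longer annotated end, 8 were above 1 TPM and the median was 0.988 TPM. The 23 genes with no loop found had 8 above 1 TPM and a median of 0.669 TPM. With AATAAA, 3 of 14 were above 1 TPM, and without it 21 of 51 were. None of these groups approached the median of 12.2 TPM of the variants. Exon structure and length also differed between the classes: 8 of 15 variants and 60 of 65 replication-dependent histones had a single exon block, and the median exon length was 1633 bases in variants and 482 bases in replication-dependent histones.

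Polyadenylated mRNA is what a poly(A)+ library captures, so other RNAs that are made without a poly(A) tail were examined. Of 10 such RNAs, 9 were in the tables, with a median of 3.49 TPM. Rpph1, the RNA of RNase P, had 122 ± 17.4 TPM, Malat1 had 81.5 ± 6.00 TPM and Rn7sk had 17.6 ± 9.14 TPM (SD, n = 4). Rny3 had no count. The RNAs of this list are not protein-coding and were not part of the level test. Malat1 and Neat1, both on the list, end in a genomically encoded triple helix. How far a poly(A)+ library captures them was not tested, so their levels do not show which RNA was captured. The part of poly(A) selection in the low replication-dependent sums was not tested.

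Promoter sequence was described from RefSeq windows of 250 bases before to 50 after the start (GRCm38.p6), which matched 14 of 15 variants and 60 of 65 replication-dependent histones. CCAAT, a box bound by the factor NF-Y, was found on either strand in 71.4% of 14 variant windows, in 85.2% of 61 replication-dependent windows and in 37.4% of all 32851 windows. TATAAA, the letters of a common TATA box, was found in 7.14% of variant windows, in 57.4% of replication-dependent windows and in 13.6% of all windows. Both were searched anywhere in the window, so a match need not lie where a CCAAT or TATA box acts. By histone class, CCAAT was missing from 9 of the 12 H4 windows and from none of the other replication-dependent windows. The highest gene of each group is shown, with both motifs in capitals on either strand.
H3f3b (chr11:116024455-116024754, minus strand): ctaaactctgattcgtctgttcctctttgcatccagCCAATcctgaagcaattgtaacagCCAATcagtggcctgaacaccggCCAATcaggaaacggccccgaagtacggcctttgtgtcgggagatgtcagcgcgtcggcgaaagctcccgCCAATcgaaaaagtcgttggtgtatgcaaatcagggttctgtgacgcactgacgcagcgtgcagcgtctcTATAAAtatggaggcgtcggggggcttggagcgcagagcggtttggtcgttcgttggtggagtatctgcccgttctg
Hist1h4i (chr13:22041313-22041612, minus strand): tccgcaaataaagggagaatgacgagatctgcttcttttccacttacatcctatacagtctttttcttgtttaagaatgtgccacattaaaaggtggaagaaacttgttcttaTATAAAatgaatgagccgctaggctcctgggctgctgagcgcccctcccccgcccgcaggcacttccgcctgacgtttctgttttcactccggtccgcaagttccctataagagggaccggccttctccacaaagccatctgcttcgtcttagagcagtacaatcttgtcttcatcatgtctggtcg
H3f3b was the 1 variant window with TATAAA, its first base 27 bases before the start. The Hist1h4i window held no CCAAT, as most H4 windows did, and its TATAAA began 137 bases before the start.

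Few histone genes were called as varying between the libraries. The deviance of each gene from a constant mean was tested under a negative binomial model, with the dispersion trend from edgeR, for the 11171 genes that averaged 10 counts or more. After Benjamini-Hochberg adjustment 0.501% of them were called. Of the 8 variants tested 0 were called, and 1 had an unadjusted p under 0.05. Of the 26 replication-dependent histones tested 1 was called, and 3 had an unadjusted p under 0.05. The call was Hist1h4n, an H4 gene with 16, 0, 4 and 31 read pairs, or 3.05, 0, 0.894 and 4.95 TPM in replicates 1 to 4 (edgeR adjusted p = 0.0167). Replicates 1 and 4 were high and replicates 2 and 3 low. The call was lost without replicate 2, without replicate 3 and without replicate 4, and 85.6% of the words of Hist1h4n are shared.

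Genes that make, carry or place histones were abundant in the same libraries. All counts of genes above 1 TPM below come from the edgeR test, with 45.9% of all genes above. Of 23 genes for 3′ end processing and decay of histone mRNA, 22 were above 1 TPM and 1 below, with a median of 85.0 TPM. Snrpb, a core snRNP protein gene, had 817 ± 49.5 TPM, Ncbp1 of the cap-binding complex had 323 ± 4.59 TPM and Srrt had 241 ± 2.68 TPM, while Zfp473 of the U7 machinery was below at 0.555 ± 0.142 TPM. Slbp, which encodes the stem-loop binding protein, and Npat, which encodes the coactivator of the clustered genes, were picked after their values were seen. Slbp had 99.0, 95.0, 97.1 and 105 TPM and Npat had 44.5 ± 2.04 TPM. Slbp was above each replication-dependent histone gene in every library on the full exon length, though not above Hist1h2ai in replicate 4 on its unshared length.

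Of 18 listed genes for histone chaperones and their partners, chosen for replication, 18 were above 1 TPM, with a median of 161 TPM. The list was not limited to chaperones or to genes that act only at replication. Its highest was Ssrp1, a FACT subunit, at 743 ± 12.2 TPM. Nap1l1 had 613 ± 10.6 TPM and Rbbp7 had 520 ± 5.52 TPM, and the lowest was Cdan1 at 10.02 ± 0.282 TPM. Of 21 depositors and chaperones of variants, 21 were above 1 TPM, with a median of 48.2 TPM. Dek had 397 ± 18.6 TPM, Ruvbl2 had 352 ± 8.85 TPM, and Anp32e, an H2A.Z chaperone, had 349 ± 14.8 TPM. The lowest was Srcap, the motor of a complex that inserts H2A.Z, at 4.45 ± 0.195 TPM. The H3.3 factors Hira at 20.3 ± 0.318 TPM and Daxx at 71.9 ± 2.35 TPM were picked after their values were seen.

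All 18 S phase genes were above 1 TPM, with a median of 151 TPM. Pcna, the sliding clamp of DNA polymerase, had 743 ± 31.3 TPM, Mcm3 had 713 ± 18.5 TPM and Rrm2 had 629 ± 57.3 TPM, and Tk1 was lowest at 40.0 ± 4.95 TPM. On the full exon length each of these S phase genes exceeded the highest replication-dependent histone in mean level. On the unshared length Hist1h2ai, Hist1h4i, Hist1h4b and Hist1h2bj lay above Tk1. There Hist1h2ai, at 83.0 TPM, also lay above Ccne2 at 78.9, E2f1 at 69.3, Pola1 at 68.0, Tyms at 65.7 and Gins2 at 53.8 TPM. The last 5 genes were picked after their values were seen. Of the histone genes under other symbols, the centromeric H3 gene Cenpa had 7.90 ± 1.64 TPM and the spermatid linker gene Hils1 had no count.

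The label of the cells was checked with marker genes and the depth of the libraries with total counts. All 7 Th17 markers were above 1 TPM, from Il23r at 14.4 ± 2.70 TPM to Il17f at 492 ± 71.4 TPM. The 3 B cell markers and the 3 macrophage and neutrophil markers were below 1 TPM, with 0.139 TPM for Cd79a the highest and no count for Lyz2, S100a8 and Csf1r. Total counts were 41360302, 19332509, 34979616 and 48558772. A gene with an exon length of 1 kb would reach 3 counts at 0.206 to 0.518 TPM in a single library, so many replication-dependent genes, being shorter, lie near the limit of what 1 library can show.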

How the data were processed

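RNA-seq was measured in 4 Th17 libraries. The deposited values are counts of read pairs in the exons of a gene. Per the file headers they came from featureCounts 1.4.6-p4, with GENCODE M13 as annotation on mm10, set to reverse strand and to pairs whose ends both mapped. Pairs that mapped to several places were not counted. The aligner was not given in the sources used here. The merged exon length of each gene is the authors' deposited value.

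Symbols, gene types and transcript sequences came from GENCODE M21, which matched 50376 (99.6%) of 50600 genes; gene coordinates were read from the tables. TPM was computed over all genes. The test of a level against 1 TPM was edgeR 4.0.16 under R 4.3.3 (intercept with an offset, two-sided, Benjamini-Hochberg). The steps of the quasi-likelihood test were run singly, since the packaged function refuses a lone intercept. Variation used TMM factors and the trended dispersion, one-sided. Pairs were compared within libraries as log2(TPM + 1). Tests were checked on simulated data. Alternatives were DESeq2 1.42.0 with the same offset, other levels, filters, pseudocounts, denominators and lengths, and leaving out each library.

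Shared sequence is the share of 50-base words of a gene's transcripts also present, on either strand, in transcripts of any other gene. It also counts genes that overlap on the opposite strand, which counting by strand keeps apart, so it can overstate shared reads. Where M21 transcripts run past the counted M13 exons, it can instead understate them. A level is uncertain from 25% on. Limits for genes with no count are 3 counts over the 4 libraries and cover counting error only, since the reads carry no molecular identifiers and may repeat a molecule.

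The members and lists were chosen with earlier results of these data known. Named are all variants, the 3 highest and the lowest replication-dependent gene of each class (1 where several tie at 0), genes past the variation test, and the 3 highest and the lowest of each other list; for the marker lists only the ends are given. Hist4h4, Hist2h2ac, Hist3h2a, Hist1h1c, Hist1h2ae and the genes with all words shared are named for their sequence. Another 9 genes with matching symbols are pseudogenes or antisense and are no members.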

Additional observations from a re-analysis of the deposited data

Results flagged for a closer look

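Of 42 sets of 4 library values examined for a library that stands apart by Dixon's ratio, 2 passed the critical value for sets of 4, and chance passes about 1 in 20. The summed TPM of the 12 replication-dependent H3 genes was 34.6, 34.5, 25.8 and 35.9 in replicates 1 to 4, and the gap of replicate 3 to the nearest library was 0.863 of the range. The difference of H2afz and H2afv on the log2(TPM + 1) scale was 4.75, 4.46, 4.73 and 4.73, with replicate 2 low at a ratio of 0.928.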

How the results depend on the processing

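No paired analysis was possible because all libraries belong to 1 group. The median difference of variants and replication-dependent histones, 2.78 on the log2(TPM + 1) scale, was 2.34 with means in place of medians, 3.60 with a pseudocount of 0.1, 5.27 among members with a count, and 2.10 on the unshared length. The variant share of histone TPM was 97.9% of counts and 78.5% on the unshared length. In alternatives chosen after seeing the data, among members with under 25% shared words the median difference was 3.18 and the variant share 97.9%. There 4 of 16 replication-dependent genes were above 1 TPM, against 45.9% of all genes. Without H3f3b, also chosen after seeing the data, the variant share was 81.9%. Variants below 1 TPM numbered 0 with a minimum mean of 10 counts, which removes such genes, and 0 with DESeq2. Of 65 replication-dependent genes, 14 were above 2 TPM and 35 below it, against 9497 and 11918 of 21764 genes. Replication-dependent genes below 1 TPM numbered 0 with the count minimum, against 765 of 11171 genes, and 0 with DESeq2. On the unshared length 8 of 60 were below, against 11198 of 21759 genes. At the common dispersion 3 of 26 replication-dependent genes varied between libraries (Hist1h2ai, Hist1h4c and Hist1h4n), against 249 of 11171 genes. With a minimum mean of 1 count 0 of 52 did, against 53 of 12995 genes. Leaving out each library, 0 to 1 did. On the unshared length, H3f3b minus H3f3a was 3.07, H2afz minus H2afv 5.30 and H2afx minus H2afz -1.97, and H2afy minus H2afy2 was 9.64 with a pseudocount of 0.1, each beyond 1 SD. The cause of these changes was not tested. These 4 belong to 74 values that kept their direction and, for counts, stayed within 1.5 times. Among levels of single genes, 22 moved by more than 1 SD and 134 did not. No direction reversed. At 3 counts a gene of 1 kb needs 0.206 to 0.518 TPM in a library, which limits the lowest replication-dependent genes.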
